A study of Danio rerio with 12 samples.

Results

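The genes described here are socs3a (ENSDARG00000025428) and nfkbiaa (ENSDARG00000005481), 2 of the 31962 zebrafish genes counted by RNA sequencing in sorted macrophages. They were chosen by name, as feedback inhibitors of JAK-STAT and NF-kB signalling. The amputated groups were Amp+Beclo (tail amputation and beclomethasone) and Amp (tail amputation and vehicle). The groups without amputation were Beclo (beclomethasone) and Control (vehicle), and each of the 4 groups had 3 samples. Beclomethasone, a synthetic glucocorticoid, was given at 25 μM for 2 h before amputation and again afterwards, and the vehicle was 0.05% DMSO. Embryos of the line Tg(mpeg1.4:mCherry-F) were amputated at 3 dpf (days post fertilization), and red fluorescent cells were sorted at 4 hpa (hours post amputation). The mpeg1.4 promoter, which marks macrophages, drives the fluorescent protein in all 4 groups. Each sample pooled 100 to 150 embryos of 1 of 3 replicate experiments, so a value describes a pool and not a single larva. Actinomycin D, which stops transcription, was present during cell isolation in all groups.

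NF-kB is held in the cytoplasm by inhibitor proteins of the IkB family. Inflammatory stimuli cause the breakdown of these inhibitors, and NF-kB then switches on the gene for IkB-alpha, which shuts the pathway down again. nfkbiaa is one of the zebrafish genes for IkB-alpha, the other being nfkbiab. In JAK-STAT signalling, cytokine receptors activate JAK kinases and STAT transcription factors, and STATs switch on SOCS genes whose proteins block the receptor and its kinase. socs3a is one of a pair of zebrafish genes for SOCS3, an inhibitor of signalling by cytokines of the interleukin-6 family. In several mammalian cell types glucocorticoids also raise the transcripts of NFKBIA and other inhibitors of inflammatory signalling.

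The 12 libraries held between 9488569 and 18865019 reads on genes, with 9488569 to 12289405 in Amp+Beclo, 10894542 to 16107041 in Amp, 11369951 to 15161157 in Beclo and 11023085 to 18865019 in Control. Macrophage markers were present in all libraries: 18 listed genes summed to between 4996 and 28638 CPM (the usual library-scaled read count of a gene, TMM-normalized), and none was at 0 in all 12 libraries. Muscle and epidermis transcripts were present as well. The 4 muscle genes summed to 10681 to 29366 CPM in Amp+Beclo, 17031 to 57877 in Amp, 16862 to 21268 in Beclo and 8200 to 24085 in Control. The 5 epidermis genes summed to between 7042 and 29972 CPM over all libraries. In these bulk samples fewer cells of a type and less RNA per cell cannot be told apart.

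socs3a transcripts were more abundant in all 6 samples given beclomethasone than in any of the 6 samples given vehicle. In Amp+Beclo samples socs3a had 154, 154 and 124 CPM, and in Amp samples 50.7, 52.4 and 111 CPM. In Beclo samples it had 168, 134 and 262 CPM, against 49.3, 49.7 and 80.5 CPM in Control samples. The lowest value with beclomethasone was 124 CPM and the highest without it was 111 CPM, so the drug states did not overlap, although the Amp sample of replicate experiment 3 came close to the treated samples. How many of all genes separated the drug states in this way was not counted. The underlying counts ran from 453 to 2873 reads per library, and counting error alone was at most 4.70% of a value.

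**Figure D1:**
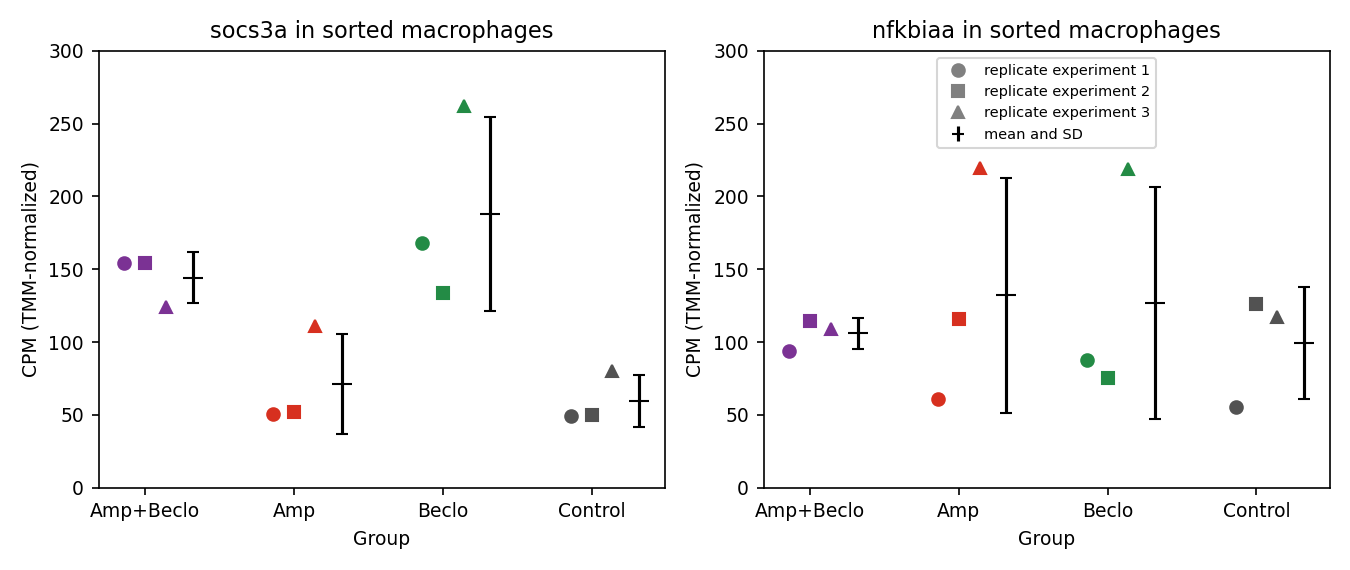
Levels of socs3a (left) and nfkbiaa (right) in CPM on the vertical axes, by group on the horizontal axes. Symbols are single samples by replicate experiment, and the bars give the mean and SD (n = 3). All socs3a values with beclomethasone lay at or above 124 CPM and all values without it at or below 111 CPM, while the nfkbiaa values of the 4 groups overlapped.

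Over both wound states the beclomethasone effect on socs3a was a 2.63-fold increase (log2 fold change 1.40 ± 0.25 SE, 95% interval 0.86 to 1.94, n = 6 against 6). This passed the edgeR quasi-likelihood test with an adjusted p of 0.0152 and a fold change above 2. Of the 21979 genes tested for this effect, 0.874% were significantly regulated upwards, and socs3a ranked 93rd by p-value and 293rd by fold change. The direction held in every setting tried, but the call lay near its threshold. Without the replicate block the log2 fold change was 1.33 with an edgeR adjusted p of 0.0550. Leaving out any 1 of the 3 replicate experiments ended the call, with log2 fold changes of 1.24, 1.28 and 1.58 and edgeR adjusted p-values of 0.199, 0.321 and 0.0657. So did leaving out any of 6 single libraries, namely Amp+Beclo replicate 1, Amp replicate 1, Beclo replicate 3 and Control replicates 1, 2 and 3. Over the 12 single-library omissions the log2 fold change ranged between 1.31 and 1.58 and the edgeR adjusted p between 0.00395 and 0.0637.

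The comparisons of a beclomethasone group with a vehicle group, fitted on 6 samples each, gave log2 fold changes between 1.13 and 1.63 for socs3a that did not pass the threshold. Beclo and Control differed by a log2 fold change of 1.63 (95% interval 0.94 to 2.32), with an edgeR adjusted p of 0.0745 in a comparison in which 0.167% of genes were significantly regulated upwards. Within the 3 replicate experiments the difference was 1.76, 1.43 and 1.70 on the log2 scale, the narrowest spread among the comparisons of socs3a (SD 0.18). Amp+Beclo and Amp differed by 1.13 (95% interval 0.01 to 2.25, edgeR adjusted p of 0.54), with 0.258% of genes significantly regulated upwards. Here the replicate experiments gave 1.60, 1.56 and 0.16 (SD 0.82), a spread of socs3a itself that the interval does not use. The small difference in replicate experiment 3 came from a pair in which the Amp sample was the highest and the Amp+Beclo sample the lowest of its group.

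Amp+Beclo against Control, which differ in both wound and drug, gave a socs3a log2 fold change of 1.30 (95% interval 0.56 to 2.03, edgeR adjusted p of 0.19, 0.374% of genes significantly regulated upwards). The replicate experiments differed by 1.64, 1.63 and 0.62. The comparisons of Amp, Beclo and Amp+Beclo with Control share the Control samples and are not independent of one another.

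Amputation was not accompanied by a detectable difference in socs3a. Amp against Control gave a log2 fold change of 0.20 (95% interval -0.53 to 0.93, edgeR adjusted p of 0.81), where 2.46% of all genes tested were called. Amp+Beclo against Beclo gave -0.28 (95% interval -0.89 to 0.33, edgeR adjusted p of 0.71), where 0.0046% of genes were called. Over both drug states the amputation effect was -0.03 (95% interval -0.56 to 0.50, edgeR adjusted p of 1.00), where 0.0955% of genes were called. These intervals leave room for differences in either direction. Ordered by mean, socs3a was highest in Beclo (188 ± 66.6 CPM), then Amp+Beclo (144 ± 17.6), Amp (71.3 ± 34.3) and Control (59.8 ± 17.9; SD, n = 3 each). No neighbours in this order passed the test against each other.

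nfkbiaa showed no such separation. It had 94.2, 114 and 109 CPM in Amp+Beclo, against 61.0, 116 and 220 CPM in Amp. In Beclo it had 87.5, 75.1 and 219 CPM, against 55.5, 126 and 117 CPM in Control. The values of all 4 groups overlapped, and the 2 highest samples, from Amp and Beclo, both belonged to replicate experiment 3. By replicate experiment the gene averaged 74.6 ± 19.1, 108 ± 22.5 and 166 ± 61.3 CPM (SD, n = 4 each). By drug state it averaged 117 ± 52.1 CPM with beclomethasone and 116 ± 59.3 CPM without (SD, n = 6 each). With 896 to 2395 reads per library, counting error was at most 3.34% of a value, far below this spread.

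None of the 8 comparisons called nfkbiaa, in any setting tried. In either direction, calls over all genes tested made up 2.46% for Amp against Control, 0.172% for Beclo against Control, 0.419% for Amp+Beclo against Control, 0.299% for Amp+Beclo against Amp and 0.951% for beclomethasone over both wound states. The beclomethasone effect over both wound states was a log2 fold change of 0.09 (95% interval -0.50 to 0.68, edgeR adjusted p of 0.96). Amp and Control differed by 0.31 (95% interval -0.44 to 1.07, edgeR adjusted p of 0.69), and Amp+Beclo and Amp by -0.12 (95% interval -1.23 to 0.99, edgeR adjusted p of 0.96). For Beclo against Control the value was 0.27 (95% interval -0.55 to 1.095, edgeR adjusted p of 0.96), for Amp+Beclo against Control 0.17 (95% interval -0.54 to 0.87, edgeR adjusted p of 1.00) and for Amp+Beclo against Beclo -0.05 (95% interval -0.74 to 0.65, edgeR adjusted p of 0.96). Over both drug states the amputation effect was 0.10 (95% interval -0.49 to 0.69, edgeR adjusted p of 1.00). The replicate experiments went in different directions: Beclo against Control gave 0.65, -0.75 and 0.90 on the log2 scale, and Amp+Beclo against Amp gave 0.62, -0.02 and -1.01. By mean the order was Amp (132 ± 80.6 CPM), Beclo (127 ± 79.6), Amp+Beclo (106 ± 10.5) and Control (99.6 ± 38.5; SD, n = 3 each), and no neighbours differed beyond their spread.

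**Figure D2:**
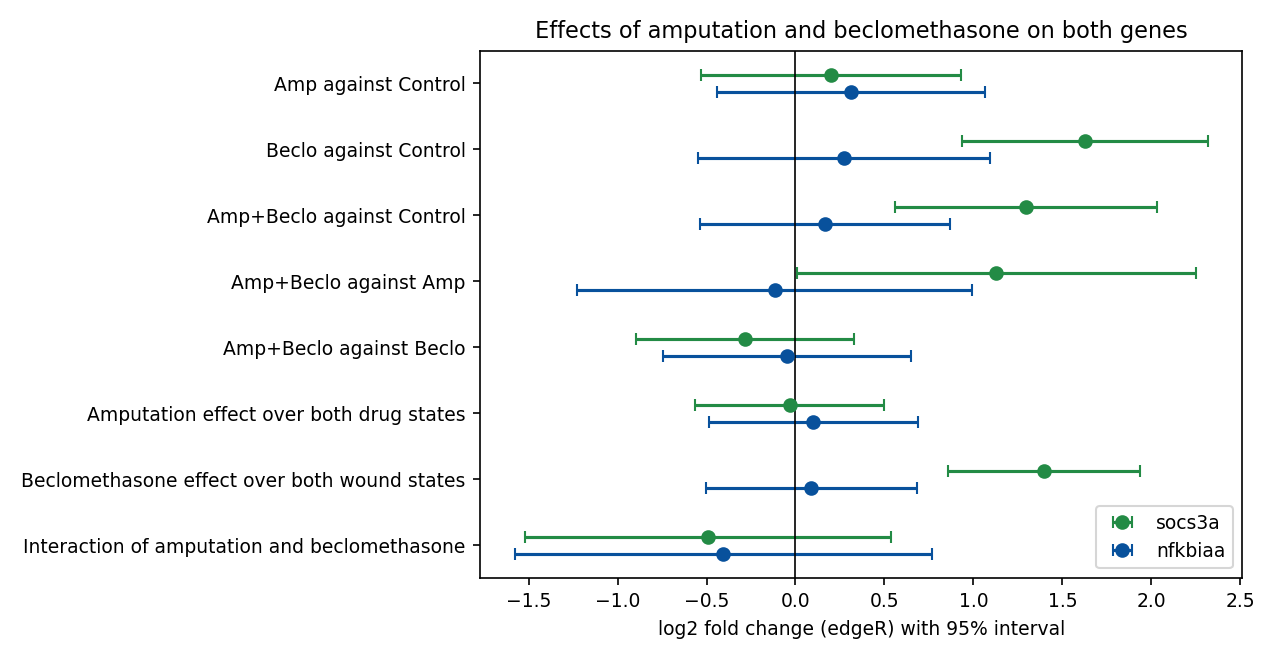
Log2 fold changes from edgeR (horizontal axis) with 95% intervals for socs3a and nfkbiaa in the 5 comparisons of 2 groups, the 2 effects over all 12 samples and their interaction (rows). For socs3a the intervals of all 4 comparisons that add beclomethasone lay above 0, and only the effect over both wound states passed the threshold over all genes. The interval of Amp+Beclo against Amp began at 0.008 and used 1 estimate of spread shared by all genes, not that of socs3a. Every nfkbiaa interval included 0.

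Whether the drug acted differently in amputated and non-amputated larvae was tested by the interaction of amputation and beclomethasone. For socs3a it was -0.49 (95% interval -1.52 to 0.54, edgeR adjusted p of 0.63) and for nfkbiaa -0.41 (95% interval -1.58 to 0.77, edgeR adjusted p of 0.73). The replicate experiments gave -0.16, 0.13 and -1.54 for socs3a and -0.03, 0.73 and -1.91 for nfkbiaa, so for both genes replicate experiment 3 stood apart from the others. edgeR called 0 of 21979 genes for the interaction (percent called 0), with 2389 genes at an unadjusted p under 0.05, and DESeq2 called 5.

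The balance between the genes within a library does not depend on the scaling between libraries. The count ratio of socs3a to nfkbiaa was 1.64, 1.35 and 1.13 in Amp+Beclo, against 0.831, 0.452 and 0.504 in Amp. It was 1.92, 1.78 and 1.1996 in Beclo, against 0.887, 0.394 and 0.687 in Control. Ratios in the 6 treated libraries were thus between 1.13 and 1.92 and in the 6 vehicle libraries between 0.394 and 0.887, without overlap. The counts were not divided by gene length, so the ratios can be compared between samples only and do not rank the genes. This description uses the same libraries as the comparisons above and is not separate support. nfkbiaa averaged 117 CPM with beclomethasone and 116 CPM without, so the ratio largely restates the socs3a difference. How many of all genes had a ratio to nfkbiaa without overlap was not counted.

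Over all 12 samples, log2 CPM of nfkbiaa and socs3a had Pearson's r = 0.44 and Spearman's rho = 0.18 (permutation p = 0.151 and 0.574). Since socs3a separated the drug states, the relation between the 2 genes was then examined within each state. In the 6 samples given beclomethasone, log2 CPM of nfkbiaa and socs3a had Pearson's r = 0.82 and Spearman's rho = 0.43 (exact permutation p = 0.175 and 0.419, adjusted over the 2 drug states 0.175 and 0.419). This r was -0.61 over the 4 samples left without the 2 farthest from the nfkbiaa median. Of the treated samples, Beclo replicate 3 was the highest for both genes (219 CPM for nfkbiaa and 262 CPM for socs3a). In the 6 vehicle samples r was 0.76 and rho 0.66 (exact permutation p = 0.0861 and 0.175, adjusted 0.172 and 0.35), and r was 0.78 without the 2 samples farthest from the median. Within the replicate experiments, each holding 1 sample per group, r was 0.98, -0.59 and 0.59 (n = 4 each), so the relation did not hold within all of them.

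The paralogs of both genes were measured as well. The other gene named SOCS3 (ENSDARG00000026611) had 208, 216 and 206 CPM in Amp+Beclo, against 160, 624 and 543 CPM in Amp. It had 218, 209 and 296 CPM in Beclo, against 110, 295 and 125 CPM in Control. Its beclomethasone effect was a log2 fold change of -0.17 (edgeR adjusted p of 0.95), and its highest values were 2 of the 3 Amp samples. For Amp against Control it reached 1.25 ± 0.42 SE with an edgeR adjusted p of 0.0747, which ranged between 0.0211 with DESeq2 and 0.85 without the block, and was 0.0202 without replicate 1.

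nfkbiab (ENSDARG00000007693), the paralog of nfkbiaa, had 747, 560 and 483 CPM in Amp+Beclo, against 256, 945 and 595 CPM in Amp. It had 791, 536 and 813 CPM in Beclo, against 251, 576 and 263 CPM in Control. With all samples it was called in no comparison, with log2 fold changes of 1.07 for Beclo against Control (edgeR adjusted p of 0.84), 0.80 for Amp+Beclo against Control (edgeR adjusted p of 0.77) and 0.65 for Amp against Control (edgeR adjusted p of 0.40). Without replicate 2, unlike nfkbiaa, it was called in Beclo against Control (1.61, edgeR adjusted p of 0.0242) and in Amp+Beclo against Control (1.21, edgeR adjusted p of 0.00922). How the counting treated reads shared by such similar genes is not given in the sources used here.

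**Figure D3:**
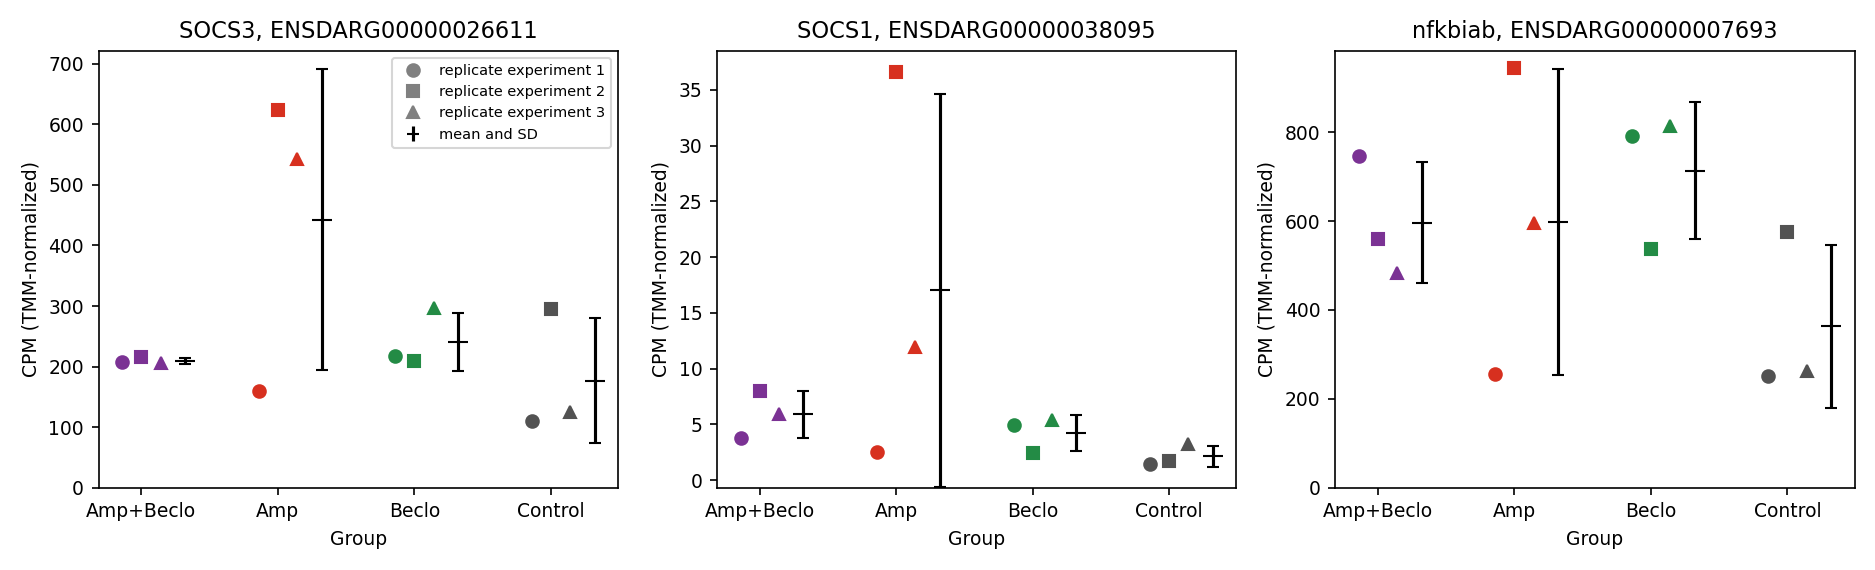
CPM (vertical axes) by group (horizontal axes) of the other gene named SOCS3, of SOCS1 and of nfkbiab. Symbols are single samples by replicate experiment, and bars give the mean and SD (n = 3). In Amp, replicate experiment 1 lay below the other 2 for all 3 genes; for SOCS1 it had 2.56 CPM, against 36.6 and 11.9 CPM in the others.

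SOCS1 (ENSDARG00000038095), an inhibitor of interferon and other cytokine signalling, had 2.56, 36.6 and 11.9 CPM in Amp, against 1.44, 1.72 and 3.22 CPM in Control. In Amp+Beclo it had 3.79, 8.03 and 5.95 CPM, against 4.96, 2.43 and 5.39 CPM in Beclo. It rose in Amp by a log2 fold change of 2.34 ± 0.47 SE (edgeR adjusted p of 0.000175). The call was lost without the replicate block, where the adjusted p was 0.85, in 1 fit of all 12 samples (0.35), without replicate 2 (0.71) and without replicate 3 (0.66). Another SOCS1 gene, socs1b, had 5 reads in all 12 libraries together and was not tested.

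Among all 22 tested members of a list of JAK-STAT inhibitors, socs3a was the only 1 called for beclomethasone over both wound states, where 0.951% of all genes were called. The median log2 fold change of the list was 0.12, against 0.01 over all genes tested. In Amp against Control, where 2.46% of all genes were called, the only call in this list was SOCS1, and the median was -0.29 against -0.11 over all genes. Of 20 NF-kB inhibitors, nfkbiaa among them, 1 was called for beclomethasone: pdlim2, which promotes the breakdown of the NF-kB subunit RelA in mammals, with a log2 fold change of 1.15. This call was lost without any 1 of the 3 replicates (edgeR adjusted p of 0.154 to 0.495) and without the block (0.147). The list had a median of 0.04. In Amp against Control bcl3, an atypical IkB protein that acts in the nucleus, was the only NF-kB inhibitor called (log2 fold change 1.63, edgeR adjusted p of 0.0366). It was also called in Amp+Beclo against Control (2.69, edgeR adjusted p of 0.0248), with 12.4, 16.8 and 16.0 CPM in Amp+Beclo, against 1.02, 4.64 and 2.42 CPM in Control. The first call of bcl3 was lost without any 1 of the 3 replicates (edgeR adjusted p of 0.0997 to 0.656). The second was lost without replicate 3 (edgeR adjusted p of 0.0950) and without the block (0.179).

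Several cytokines and NF-kB targets rose in Amp, in which 1.14% of genes were significantly regulated upwards and 1.32% downwards relative to Control. From a list drawn up for STAT3-activating cytokines, which also holds il34, 10 genes were tested and 4 rose. These were il6 (log2 fold change 3.01), csf3b (2.89), il11b (2.26) and m17 (2.05), the last an interleukin-6 family cytokine of fish. Of 24 inflammatory inducers and NF-kB targets, 6 rose, among them tnfa (3.00, edgeR adjusted p of 1.25e-06) and il1b (1.40, edgeR adjusted p of 0.0328). Both lists hold il6, which is counted in each. Of the 24, 1 was called for beclomethasone over both wound states, where 0.951% of all genes were called. This was cxcl8a, which fell (log2 fold change -1.72, edgeR adjusted p of 0.0355) and stayed called in 1 of 3 replicate omissions. The drug medians of the inducer and cytokine lists were -0.31 and -0.36, against 0.01 over all genes tested. il6 had 8.13, 66.6 and 42.0 CPM in Amp, against 1.12, 11.8 and 3.22 CPM in Control. All 18 listed or named genes called in Amp against Control lost the call without the replicate block, in 1 fit of 12 samples and without replicate 3. Markers moved in the same comparison. Of 4 muscle markers ckma rose (log2 fold change 1.68, list median 1.35), and all 5 epidermis markers had positive values without a call (median 0.62). Of 18 macrophage markers 1 rose, MPEG1 (ENSDARG00000043093, 1.36), and 1 fell, csf1rb (-2.07), with a list median of 0.30. This MPEG1 ID had a median of 51.4 CPM over all libraries. A more abundant ID of the same symbol, ENSDARG00000055290 (median 1209 CPM), was not called. Of 6 neutrophil markers 1 rose, mmp13a (1.31, list median 0.14), which is also in the list of inflammatory inducers and NF-kB targets. With beclomethasone over both wound states none of these markers was called. List medians were -0.27 (macrophage), 0.09 (muscle), 0.13 (epidermis) and 0.25 (neutrophil), against 0.01 over all genes tested. In Amp+Beclo against Amp, also without a call, they were -0.64, -0.58, -0.21 and 0.10, against 0.14. Erythroid markers, likewise not called, had medians of -0.39 and -0.86 in the same order. The part of these cell types in the results was not tested.

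Among 34 core genes of NF-kB signalling, 1 rose in Amp (TIRAP, a Toll-like receptor adaptor, 1.92) and 1 fell (TLR2, -2.64). Of all genes tested, 1.14% rose and 1.32% fell. Both genes had low levels. TLR2 had 1.02, 0 and 0 CPM in Amp, against 3.21, 1.38 and 0.645 CPM in Control. TIRAP averaged 3.56 CPM in Amp and 0.908 CPM in Control. TLR2 was called in 0 of the 2 replicate omissions in which it was tested, and TIRAP in 1 of 3. Among 32 core genes of JAK-STAT signalling, 1 fell in Amp (ifngr1l, -1.72, an interferon-gamma receptor gene). In Amp against Control the medians of the NF-kB and JAK-STAT core were -0.28 and -0.48, against -0.11 over all genes tested. Positive values were found for 8 of the 34 and 5 of the 32 genes. For beclomethasone over both wound states, 2 of these 32 rose, STAT4 (1.42) and lifrb (1.38), a receptor for interleukin-6 family cytokines, where 0.874% of all genes rose. Both calls were lost without any 1 of the 3 replicates, with edgeR adjusted p-values of 0.0934 to 0.179 for STAT4 and 0.0697 to 0.471 for lifrb, and lifrb also lost its call without the block (0.0570). With beclomethasone over both wound states the medians of the NF-kB and JAK-STAT core were 0.27 and 0.42, against 0.01 over all genes tested. Here 22 of 33 tested NF-kB core genes and 28 of the 32 JAK-STAT core genes had positive values.

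A list of known glucocorticoid targets shows how the drug response of socs3a compares in size. Of its 15 members, 7 rose with beclomethasone over both wound states, against 0.874% of all genes, and the list median was 1.05. FKBP5, KLF9 and HSD11B2 were called under each of the 3 replicate omissions, PDK2 under 1 of them, and PER1, PCK1 and tsc22d3 under none. FKBP5, a chaperone that binds the glucocorticoid receptor complex, had 1744, 1267 and 1102 CPM in Amp+Beclo, against 190, 102 and 140 CPM in Amp. It had 2004, 1579 and 1879 CPM in Beclo, against 215, 149 and 105 CPM in Control. Its log2 fold change over both wound states was 3.43. KLF9, a transcription factor, rose by 3.35 and tsc22d3, which encodes the glucocorticoid-induced protein GILZ, by 1.33. The 1.40 of socs3a was near the smallest of the called targets, but above the median of 1.05 of all 15. Calls required a fold change above 2, so targets with smaller effects are missing among those called.

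The genes with levels most like those of socs3a were sought among 13687 genes with a mean of at least 5 CPM, by Pearson's r of log2 CPM over the 12 samples. ENSDARG00000104400, which has no symbol, came first (r = 0.99, and 0.99 after the group means were subtracted). Its counts were between 0.868 and 1.09 times those of socs3a in every library. The files hold no gene positions and the library kit does not mark the strand, so whether both IDs share a transcribed region cannot be told apart from separate genes with like levels. The next was DUSP6, a phosphatase that switches off the kinase ERK and is itself induced by ERK signalling (r = 0.97, and 0.93 after subtraction). DUSP6 had 293, 301 and 216 CPM in Amp+Beclo, against 88.5, 115 and 233 CPM in Amp. It had 401, 262 and 462 CPM in Beclo, against 132, 103 and 172 CPM in Control.

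zgc:153012 (r = 0.96), SLC20A1 (0.94), a phosphate transporter, and POR (0.94), the electron donor of cytochrome P450 enzymes, followed. With beclomethasone over both wound states DUSP6, SLC20A1 and POR were called, with log2 fold changes of 1.24, 1.24 and 2.16, and zgc:153012 was not (1.01, edgeR adjusted p of 0.11). Of the 3 replicate omissions, 1 left POR called, and none left DUSP6 (edgeR adjusted p of 0.133 to 0.583) or SLC20A1 (0.0729 to 0.583) called. These genes were picked for their likeness to socs3a, so their calls are a description.

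**Figure D4:**
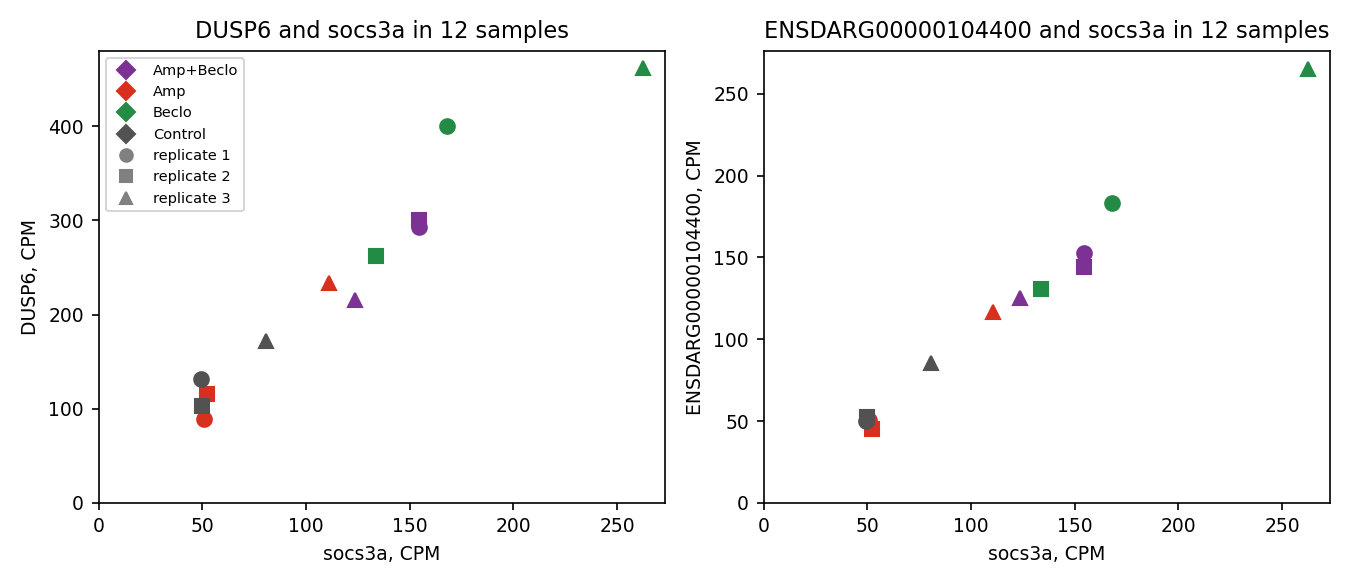
CPM of DUSP6 (left) and of ENSDARG00000104400 (right) on the vertical axes against CPM of socs3a on the horizontal axes in the 12 samples, coloured by group and shaped by replicate experiment. Both genes follow socs3a within and between groups, with r = 0.97 and 0.99 on the log2 scale. The Amp sample of replicate experiment 3 lies nearest to the treated samples.

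The genes most like nfkbiaa were AP1G2, a clathrin adaptor subunit (r = 0.91), the splicing regulator SFSWAP (0.90), EFNA2, an ephrin ligand (0.89), NPLOC4 (0.88), a cofactor in protein degradation, and klf2b, a transcription factor (0.88). After the group means were subtracted r was 0.91, 0.95, 0.97, 0.94 and 0.89 in the same order, so the likeness lay in the differences between samples of a group. No listed cytokine, NF-kB component or inhibitor was among them. So few genes named out of 13687 leave little room for one, so this absence does not show whether nfkbiaa follows its pathway. The points of these correlations share libraries and replicate experiments.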

How the data were processed

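Sorted macrophages of the 12 samples were assigned to 4 groups from the sample labels. The authors deposited raw counts of reads per Ensembl gene for each sample. Per the study's methods, SMART-seq V4 amplification was followed by sequencing of 50 nt reads, and per the submitters' processing notes TopHat2 2.1.0 and DESeq 1.26.0 were used, with GRCz10 and annotation version 80. The counting program is not given in the sources used here. Amplified reads carry no molecular identifiers, so counting errors cover sampling only. Lines for reads outside genes and for reads ambiguous between genes (together 6.84 to 14.6% of counts) were left out of the library sizes. Reads outside genes alone made up 4.72 to 12.6%.

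The members and gene lists were chosen with earlier results of these data known. Symbols came from a table that matched 26121 of the 31962 IDs; it gives the symbol SOCS3 to both socs3 genes, and 20 of 240 listed symbols found no match. Named genes were the members, their paralogs, listed genes past the threshold and the 5 genes most like each member. Listed genes past the threshold that the results leave out were ACOD1 (log2 fold change 2.16) and ZC3H12A (ENSDARG00000101034, -1.29) in Amp against Control. In Amp+Beclo against Control they were tlr5b (2.16) and ifngr1 (2.44).

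Counts were tested with edgeR 4.0.16 (R 4.3.3, TMM, quasi-likelihood F-test) with the replicate experiment as a block and Benjamini-Hochberg adjustment over all genes tested. Per the study's methods, 3 replicate experiments each gave 1 sample per group, and the analysis was paired. Samples with the same number deviated together between Amp and Control (r across genes 0.47, 0.52 and 0.66), and not consistently elsewhere. Between Beclo and Control r was -0.06, -0.03 and 0.17. Between Amp+Beclo and Control it was 0.24, -0.38 and 0.47, and between Amp+Beclo and Amp 0.12, -0.18 and 0.25. Pairs of groups were fitted on 6 samples with a sum of at least 30 counts, and the 2 effects and their interaction on 12 samples with at least 60. Calls required a fold change above 2 and an adjusted p below 0.05, and for the interaction the adjusted p alone. In the fits of Amp against Control and Amp+Beclo against Amp, edgeR gave all genes 1 shared estimate of the extra spread, so their p-values do not use gene-specific spread. Log2 CPM used a prior count of 2. The scripts were tested on simulated counts. Replicates of a group differed by more than sampling noise in every pair (chi-square per degree of freedom 23.0 to 198.5). Alternatives were no block, DESeq2 1.42.0, RLE scaling, other count filters, 1 fit of 12 samples and omission of each replicate or library. The omission of single libraries and the correlations within each drug state were chosen after seeing the data. No sequences or coordinates are given, since no genome of the files' build was used here.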

Additional observations from a re-analysis of the deposited data

How the results depend on the processing

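The direction of the beclomethasone effect on socs3a and of the comparisons that add the drug held in all settings. For Beclo against Control the edgeR adjusted p of 0.0745 fell below the threshold with DESeq2 (log2 fold change 1.62, adjusted p of 4.21e-05), with no filter (1.63, adjusted p of 0.0138), with at least 10 counts in every sample (1.58, adjusted p of 0.0083) and without replicate 2 (1.71). For Amp+Beclo against Control it did so with DESeq2 (1.30, adjusted p of 0.0172) and without replicate 2 (1.12). Omitting replicates gave 1.54 to 1.71 and 1.12 to 1.61 for these comparisons and 0.75 to 1.56 for Amp+Beclo against Amp. For the beclomethasone effect the block and the pairing mattered: without the replicate block it was 1.33 (edgeR adjusted p of 0.0550), and omissions gave 1.24 to 1.58.

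Values near 0 changed sign. The amputation effect on socs3a was 0.0019 with DESeq2 and 0.0024 with RLE scaling, and -0.19 to 0.14 under omissions. Omissions gave -0.54 to 0.063 for socs3a in Amp+Beclo against Beclo. For nfkbiaa they gave -0.038 to 0.75 (Beclo against Control), -0.10 to 0.31 (Amp+Beclo against Control), -0.62 to 0.28 (Amp+Beclo against Amp), -0.39 to 0.38 (Amp+Beclo against Beclo), -0.047 to 0.24 (amputation effect), -0.19 to 0.27 (beclomethasone effect) and -0.99 to 0.27 (interaction). nfkbiab in Amp+Beclo against Amp was -0.0089 without the block and -0.64 to 0.65 under omissions.

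Counts of called genes moved more. Amp against Control had 543 calls, with 0 without the block, 816 with DESeq2, 7 in 1 fit of 12 samples and 2 to 1508 under omissions. Beclo against Control had 38, with 241 (DESeq2), 60 (RLE), 138 (no filter), 116 (at least 10 counts) and 3 to 140 (omissions). Amp+Beclo against Control had 93, with 29 (no block), 370 (DESeq2), 141 (RLE), 261 (no filter) and 35 to 664 (omissions). Amp+Beclo against Amp had 65, with 2 (no block), 21 (at least 10 counts), 25 (1 fit) and 1 to 13 (omissions). Amp+Beclo against Beclo had 1, with 0 (no block and RLE), 107 (DESeq2), 18 (no filter), 14 (at least 10 counts) and 0 to 38 (omissions). The amputation effect had 21, with 4 (no block), 116 (DESeq2), 0 to 3 (replicates omitted) and 2 to 43 (single libraries omitted). The beclomethasone effect had 209, with 114 (no block), 401 (DESeq2), 18 to 60 (replicates omitted) and 93 to 258 (single libraries omitted). The interaction had 0, with 5 (DESeq2) and 0 to 2 (single libraries omitted). The causes were not tested. With 3 samples a group, differences within the intervals that include 0 cannot be seen in either gene.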
